A study of Rattus norvegicus with 44 samples.

Results

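Mitochondrial ribosomal protein genes were read in the livers and kidneys of rats (Harlan Sprague Dawley males) dosed with crude 4-methylcyclohexanemethanol (MCHM), an alcohol mixture used to wash coal. They are the genes whose symbol in the annotation of the array begins with Mrpl or Mrps followed by a number. Only probe sets annotated with that gene alone were taken, and where a gene had several, the brightest in the organ was read. This gave 73 genes of the 14217 named on the array, 46 with a large subunit symbol (Mrpl) and 27 with a small subunit symbol (Mrps). They have 97 probe sets between them, and the brightest was the same in both organs for all 73 genes. The rule uses no measured difference, though the family was chosen with earlier results of these data known.

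The rats were 6 to 8 weeks old when they were assigned to groups. On 5 consecutive days they were gavaged with 0, 0.1, 1, 10, 100, 300 or 500 mg/kg of crude MCHM, made up in corn oil at 5 mL/kg, and they were killed a day later. By their labels all groups shared sex, strain, diet and vehicle, and the 0 mg/kg group of each organ is its vehicle control. Total RNA of 27 livers was put on Affymetrix rat 3' expression arrays, with 3 livers in the 0.1 mg/kg group and 4 in every other group. Of the 17 kidney arrays, the 0, 300 and 500 mg/kg groups have 3 each and the groups between have 2 each. The labels call the arrays of a group biological replicates, and they do not say which liver and kidney arrays come from the same rat. The submitters removed arrays with batch effects before deposit, so the groups are what was left. The composition of the crude mixture is not given in the labels. Precision is limited by these small groups.

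Mitochondria carry ribosomes of their own, which make the few proteins encoded in mitochondrial DNA, all of them subunits of the respiratory chain and the ATP synthase. The RNA of these ribosomes is mitochondrial, but all their proteins are encoded in the nucleus, made in the cytosol and imported. The large subunit forms the peptide bond and the small subunit reads the messenger RNA. The family descends from bacterial ribosomal proteins and has gained members found only in mitochondria. In known structures of the mammalian ribosome *Mrps18a* and *Mrps30* products sit in the large subunit in spite of their symbols; they are counted by symbol here. Liver and kidney tubule are both rich in mitochondria. Nuclear genes of mitochondria often carry promoter sites for the factors NRF1, the ETS factor GABP and YY1.

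Promoter windows are shown for 5 members that recur in the results or that share a start region. Windows run from 250 bases before to 50 bases after the annotated start, as listed by RefSeq for the assembly GRCr8, and 59 of the 73 members had one. Exact matches were searched on both strands to 3 short cores: GCGCATGC for NRF1, CCGGAAG for ETS factors and AAGATGGC for YY1. Capitals mark the matches in the windows, which are printed 5′ to 3′ on the strand of the gene. The windows are *Mrps18b* (chr20:2842756-2843055, plus strand), *Mrpl42* (chr7:32028473-32028772, minus strand), *Mrpl58* (chr10:101145092-101145391, plus strand), *Mrps6* (chr11:44778417-44778716, plus strand) and *Mrpl46* (chr1:142116981-142117280, minus strand).
Mrps18b: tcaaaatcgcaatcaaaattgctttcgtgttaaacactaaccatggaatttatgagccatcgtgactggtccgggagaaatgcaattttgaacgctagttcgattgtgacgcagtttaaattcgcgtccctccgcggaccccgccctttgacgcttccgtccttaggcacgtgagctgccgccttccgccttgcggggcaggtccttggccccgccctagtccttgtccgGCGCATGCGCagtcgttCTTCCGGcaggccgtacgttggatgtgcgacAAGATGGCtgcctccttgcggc
Mrpl42: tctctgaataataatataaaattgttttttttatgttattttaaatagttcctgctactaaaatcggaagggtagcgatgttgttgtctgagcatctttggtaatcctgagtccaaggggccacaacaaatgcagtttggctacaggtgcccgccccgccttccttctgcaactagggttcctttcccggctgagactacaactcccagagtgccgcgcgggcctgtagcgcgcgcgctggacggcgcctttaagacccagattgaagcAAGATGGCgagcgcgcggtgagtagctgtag
Mrpl58: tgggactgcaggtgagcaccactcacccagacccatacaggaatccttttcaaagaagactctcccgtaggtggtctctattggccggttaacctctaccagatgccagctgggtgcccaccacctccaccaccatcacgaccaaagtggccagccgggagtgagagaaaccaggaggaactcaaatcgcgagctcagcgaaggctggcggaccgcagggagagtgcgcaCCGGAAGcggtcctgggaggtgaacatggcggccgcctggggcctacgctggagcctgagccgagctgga
Mrps6: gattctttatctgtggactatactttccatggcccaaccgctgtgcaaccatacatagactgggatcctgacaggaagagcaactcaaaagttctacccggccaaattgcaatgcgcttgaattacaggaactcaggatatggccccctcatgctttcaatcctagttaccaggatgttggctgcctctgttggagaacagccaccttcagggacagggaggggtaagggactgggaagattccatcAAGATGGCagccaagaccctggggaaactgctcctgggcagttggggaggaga
Mrpl46: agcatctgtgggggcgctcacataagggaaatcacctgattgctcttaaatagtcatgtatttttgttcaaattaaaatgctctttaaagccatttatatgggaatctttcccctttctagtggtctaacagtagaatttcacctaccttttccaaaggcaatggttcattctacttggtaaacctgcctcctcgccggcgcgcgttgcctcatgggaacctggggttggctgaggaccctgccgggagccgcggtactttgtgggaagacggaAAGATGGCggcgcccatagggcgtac

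*Mrps18b*, the member with the smallest adjusted p at 300 mg/kg in liver, held all 3 cores. Its NRF1 core matched on both strands within 1 overlapping run of capitals, and its ETS core lies on the other strand. *Mrpl42* and *Mrps6* each held a YY1 core. *Mrpl58* held an ETS core. *Mrpl46* held a YY1 core, and its window overlaps that of *Mrps11* (chr1:142117014-142117313, plus strand), which is read the opposite way from the same short stretch of chromosome 1. Over the family, the YY1 core was found in 14 of 59 windows, which is 23.7%, against 4.76% of the windows of 11503 measured protein-coding genes. The ETS core was found in 20 member windows, 33.9% against 15.2% of all. The NRF1 core was found in 5, 8.47% against 4.36% of all. At least 1 of the 3 was found in 32 windows, 54.2% against 21.99% of all. The 5 windows shown all hold a core, while 27 member windows hold none. Those of *Mrps9*, *Mrps11*, *Mrpl39* and *Mrpl47*, which also recur in the results, are among the windows with none. A match is a stretch of letters and not a site shown to bind, and a window without one says only that these letters are not in it.

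Values are log2 intensities as deposited, differences are between group means on that scale, SE is the standard error from limma, and adjusted p is limma's p after Benjamini-Hochberg adjustment over all 31042 probe sets of a comparison. A member passed a test where its adjusted p was under 0.05. The tissue labels were checked with *Alb* (14.65 to 14.73 in liver) and *Slc34a1*, a phosphate transporter of the proximal tubule (13.05 to 13.72 in kidney). Across probe sets, pairs of arrays correlated at 0.989 to 0.994 in liver and at 0.984 to 0.996 in kidney. Vehicle replicate 2 stood apart in both organs by *Xist*, an RNA of cells with a second X chromosome. It read 8.25 in liver and 6.95 in kidney, against at most 3.27 on the other arrays. These values are at odds with the male label, and their source was not tested. In kidney, 5 arrays stood apart by RNA of other tissue or by RNA quality, which here means *Alb* or the brown fat gene *Ucp1* above 8 or a GAPDH 3′ minus 5′ value above 1. They were vehicle replicate 3 (*Ucp1* 9.17), both 1 mg/kg arrays (*Alb* 11.06 and *Ucp1* 11.47), 300 mg/kg replicate 2 (*Ucp1* 9.86 and GAPDH 3′ minus 5′ 2.00) and 500 mg/kg replicate 2 (*Ucp1* 9.86). In bulk tissue, fewer cells of a type and less RNA per cell cannot be told apart.

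In liver the members leaned upward at the 2 highest doses, by little and without any single gene passing. With 500 mg/kg, 64 of 73 members had a mean above vehicle, among them all 27 with a small subunit symbol and 37 of the 46 with a large subunit symbol. Over all probe sets 51.2% were above vehicle, and over those brighter than the median of the array 53.3%. The median difference of the members was 0.09, or 1.06-fold, with a range from -0.07 to 0.34 and a median SE of 0.07, while the median of all probe sets was 0.00. By limma 0 members passed and the smallest adjusted p was 0.330, in a comparison in which 0.177% of all probe sets passed. At an unadjusted p under 0.05, 14 members were higher, which is against 5.04% of all probe sets, and 0 were lower. All 4 dosed arrays lay above all 4 vehicle arrays for 13 members, against 3.4% of probe sets, and below them for 0. Without vehicle replicate 2, which stands apart by *Xist*, the median was 0.09 and 0 members passed.

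**Figure D1:**
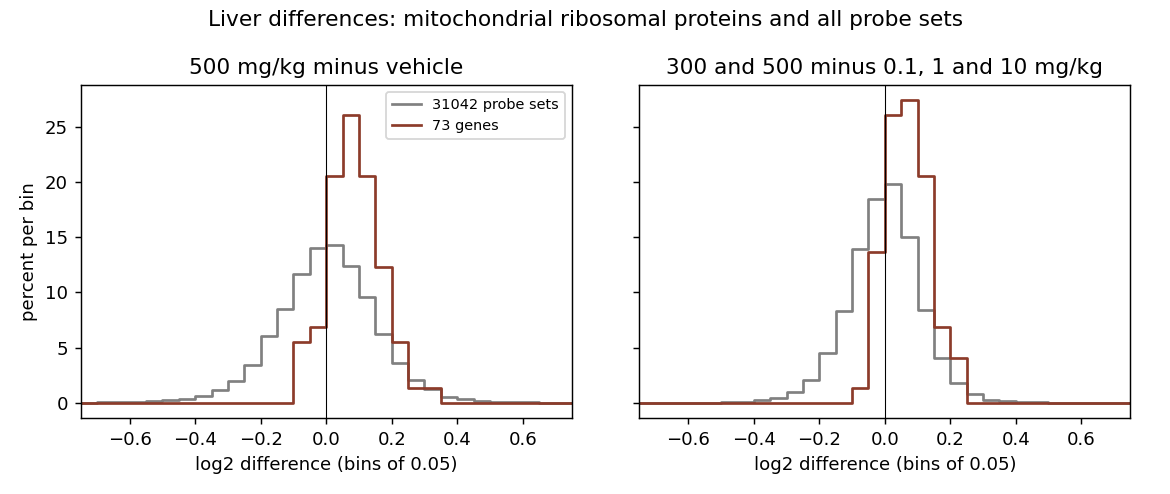
Distribution of log2 differences in liver for 500 mg/kg minus vehicle (left) and for 300 and 500 mg/kg minus 0.1, 1 and 10 mg/kg (right), in bins of 0.05, as a percent of the 73 members (red) and of all 31042 probe sets (grey). The member curves are narrow and sit just right of 0, at medians of 0.09 and 0.06, within the spread of all probe sets.

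With 300 mg/kg, 66 of 73 members were above vehicle (41 of 46 large and 25 of 27 small), against 49% of all probe sets and 55.4% of the brighter ones. The median difference was 0.08, or 1.05-fold. After a second quantile normalization it was 0.025, where that at 500 mg/kg was 0.058. In limma 0 members passed, with 0.122% of all probe sets passing, while 14 were higher and 0 lower at an unadjusted p under 0.05 (5.56% of all probe sets were higher at that level). In a fit of the brighter probe sets alone 2 members passed, where 0.896% of those probe sets did, and 2 passed with an intensity trend and robust spread. For 11 members all dosed arrays lay above all vehicle arrays, against 3.86% of probe sets. Both comparisons use the same 4 vehicle arrays.

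The lean was not on every array. Counting members above the vehicle mean of the same gene, the 500 mg/kg livers held 52, 61, 60 and 67 of 73, and the 300 mg/kg livers held 68, 66, 36 and 52. The vehicle livers themselves held 45, 42, 23 and 41. Replicate 3 at 300 mg/kg was thus no higher than the vehicle arrays, and replicate 4 at 10 mg/kg, with 68, was as high as any array of the top doses. At 100 mg/kg the arrays ran from 17 to 64. Per array, the median over members of the distance to the vehicle mean was 0.091 ± 0.038 (SD, n = 4) at 500 mg/kg, 0.078 ± 0.059 (n = 4) at 300 mg/kg and 0.003 ± 0.029 (n = 4) in vehicle.

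**Figure D2:**
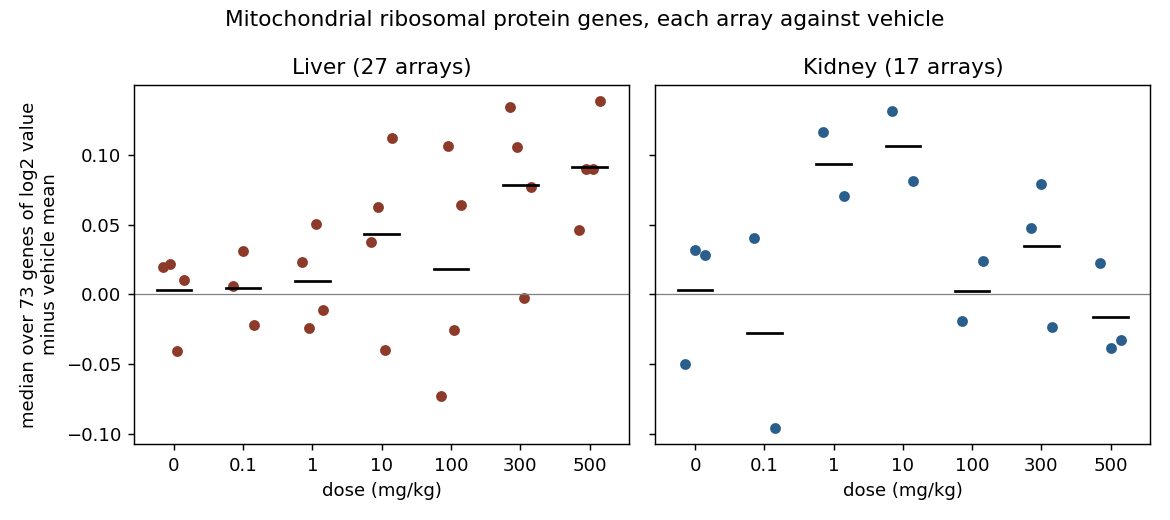
Median over the 73 members of the log2 value minus the vehicle mean of the gene, on each array (points) with the group mean (bars), by dose in mg/kg for liver (27 arrays) and kidney (17 arrays). All 4 liver arrays at 500 mg/kg lie at 0.05 to 0.14, the 100 mg/kg livers spread from -0.07 to 0.11, and in kidney the 1 and 10 mg/kg group means are the highest, with single arrays at 0.07 to 0.13.

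The lower doses of liver gave little. At 100 mg/kg 47 of 73 members were above vehicle with a median of 0.02, where 49.3% of all probe sets were above. At 10 mg/kg 58 were above with a median of 0.04, where 50.5% of all probe sets were above. At 1 and 0.1 mg/kg 46 and 38 were above, each with a median of 0.01. In each of these 4 comparisons 0 members passed in limma, and of all probe sets also 0%. At an unadjusted p under 0.05, 2 members were higher at 100 mg/kg (3.35% of all probe sets) and 2 at 10 mg/kg (3.11%). At that level 0 were higher at 1 mg/kg (2.65%), and at 0.1 mg/kg 1 was higher (2.89%) and 1 lower (2.21%).

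The contrast of 300 and 500 mg/kg with 0.1, 1 and 10 mg/kg uses no vehicle array. It gave 62 of 73 members above 0 (38 of 46 large and 24 of 27 small), with a median of 0.06, against 50.6% of all probe sets and 50.9% of the brighter ones. By limma 0 members passed, against 0.554% of all probe sets. At an unadjusted p under 0.05, 21 members were higher and 0 lower, where 6.06% of all probe sets were higher. The smallest adjusted p were 0.068 for *Mrpl39* (0.19, SE 0.05), 0.083 for *Mrps9* (0.20, SE 0.05) and 0.088 for *Mrps22* (0.20, SE 0.05). In a fit of the probe sets brighter than the median alone, 6 members passed, where 2.94% of those probe sets did. In the full fit 1 passed when either 10 mg/kg replicate 4 or 300 mg/kg replicate 3 was left out.

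A slope over the 7 dose levels, from 0 for vehicle to 6 for 500 mg/kg, was above 0 for 65 of 73 members, with a median of 0.017 log2 per level. Of all probe sets 50.2% and of the brighter ones 53.8% had a slope above 0. Again 0 members passed in limma, against 0.245% of all probe sets, while 24 were higher and 0 lower at an unadjusted p under 0.05, where 6.12% of all probe sets were higher. The 6 members with the smallest p in the trend were *Mrps22*, *Mrps35*, *Mrpl42*, *Mrps11*, *Mrps9* and *Mrpl58*. Their adjusted p ran from 0.0949 to 0.198.

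Among small subunit members, *Mrps22* encodes a protein found only in mitochondrial ribosomes, and variants of its human gene cause a deficiency of the respiratory chain. It read 8.09, 8.12, 8.10 and 7.95 in the vehicle livers. It read 8.19, 8.32, 8.11 and 8.29 at 300 mg/kg and 8.22, 8.28, 8.19 and 8.47 after 500 mg/kg. All 500 mg/kg arrays lay above all vehicle arrays, and at 300 mg/kg replicate 3 fell among them. The difference at 500 mg/kg was 0.22 (SE 0.08, adjusted p 0.396), and the slope was 0.04 per level (SE 0.01, adjusted p 0.0949). On a fit of the brighter probe sets alone the slope of *Mrps22* passed with an adjusted p of 0.0330, where 1.36% of those probe sets passed. Its other probe set is dim (mean level 3.50) and did not follow, with a slope of -0.00029 per level (SE 0.02, adjusted p 0.999) and a difference of -0.02 (SE 0.10, adjusted p 0.960) between high and low doses.

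*Mrps9*, a relative of bacterial S9, read 8.98, 8.99, 8.94 and 8.79 in vehicle. The 500 mg/kg livers read 9.09, 9.22, 9.12 and 9.25, all above vehicle, and the 300 mg/kg livers 9.11, 9.08, 8.93 and 9.16. Its difference at 500 mg/kg, 0.24 (SE 0.08, adjusted p 0.330), had the smallest p of the family in that comparison. A second, dimmer probe set of *Mrps9* gave 0.30 (SE 0.07, adjusted p 0.119) at 500 mg/kg and 0.20 (SE 0.05, adjusted p 0.052) between high and low doses. Over the family, the sign of the further probe set matched that of the brightest for 20 of 24 such probe sets at 500 mg/kg, 17 at 300 mg/kg, 19 between high and low doses and 18 in the slope.

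*Mrps35*, another member found only in mitochondria, read 9.25, 9.24, 9.20 and 9.18 in vehicle. The 300 mg/kg livers read 9.49, 9.46, 9.30 and 9.32 and the 500 mg/kg livers 9.34, 9.38, 9.38 and 9.44, with no overlap with vehicle at either dose. The differences were 0.18 (SE 0.06, adjusted p 0.312) and 0.17 (SE 0.06, adjusted p 0.396). *Mrps11*, whose start region is shared with *Mrpl46*, showed the same order. It read 8.64, 8.66, 8.52 and 8.57 in vehicle, 8.73, 8.82, 8.71 and 8.79 at 300 mg/kg and 8.66, 8.73, 8.81 and 8.80 after 500 mg/kg. The lowest 500 mg/kg array, at 8.66, barely cleared the highest vehicle array, at 8.6596. The differences of *Mrps11* were 0.17 (SE 0.07, adjusted p 0.394) and 0.16 (SE 0.07, adjusted p 0.490).

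*Mrps18b* is 1 of the 3 members related to bacterial S18, with *Mrps18a* and *Mrps18c*. It read 9.50, 9.41, 9.48 and 9.59 in vehicle and 9.89, 10.02, 9.90 and 9.82 at 300 mg/kg, a gap wider than either group's own range. The difference was 0.41 (SE 0.09, adjusted p 0.0774). The 500 mg/kg livers read 9.75, 9.68, 9.51 and 9.71, which overlaps vehicle, with a difference of 0.17 (SE 0.09, adjusted p 0.636). The 0.1 mg/kg livers, at 9.79, 9.77 and 9.54, were as high as the 500 mg/kg livers, so the values did not follow dose. In kidney the gene read 9.02, 9.17 and 9.02 in vehicle and 9.59, 9.25 and 9.33 at 500 mg/kg, a difference of 0.32 (SE 0.17, adjusted p 0.546), while the 0.1 mg/kg kidneys read 9.49 and 9.25.

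Among large subunit members, *Mrpl42* read 9.25, 9.15, 9.13 and 9.26 in vehicle livers. It read 9.43, 9.37, 9.28 and 9.35 at 300 mg/kg and 9.41, 9.31, 9.46 and 9.41 after 500 mg/kg, above every vehicle array at both doses. The differences were 0.15 (SE 0.07, adjusted p 0.459) and 0.20 (SE 0.07, adjusted p 0.356). *Mrpl58*, a hydrolase that releases stalled chains and has become part of the large subunit, read 8.96, 8.96, 8.86 and 8.82 in vehicle. It read 9.12, 9.06, 9.06 and 9.03 at 300 mg/kg (difference 0.17, SE 0.07, adjusted p 0.440) and 8.94, 9.03, 9.12 and 9.05 at 500 mg/kg (0.13, SE 0.07, adjusted p 0.616). The 500 mg/kg values overlapped vehicle through replicate 1 only.

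*Mrpl21* read 8.47, 8.46, 8.37 and 8.54 in vehicle and 8.67, 8.74, 8.59 and 8.82 at 500 mg/kg, with a difference of 0.25 (SE 0.10, adjusted p 0.425). At 300 mg/kg replicate 3 was the lowest of both groups at 8.34. *Mrpl39* read 8.24, 8.33, 8.32 and 8.27 in vehicle, 8.37, 8.31, 8.13 and 8.38 at 300 mg/kg and 8.36, 8.50, 8.48 and 8.54 after 500 mg/kg. It was thus above vehicle at 500 mg/kg alone (0.18, SE 0.07, adjusted p 0.433). Its livers at 0.1 mg/kg, 8.07, 8.18 and 8.13, lay below every vehicle array. So did those at 1 mg/kg, at 8.08, 8.205, 8.22 and 8.22, while those at 10 mg/kg, at 8.27, 8.28, 8.19 and 8.41, overlapped vehicle. The low values add to its place at the head of the contrast of high with low doses.

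*Mrpl47* had the largest difference of the family in liver and did not follow dose. It read 7.52, 7.34, 7.32 and 7.60 in vehicle, 8.16, 7.82, 7.91 and 8.03 at 300 mg/kg and 7.63, 7.72, 7.71 and 8.05 after 500 mg/kg. The differences were 0.54 (SE 0.13, adjusted p 0.105) and 0.34 (SE 0.13, adjusted p 0.426). The 0.1 mg/kg livers, at 7.82, 7.81 and 7.90, also lay above every vehicle array, with a difference of 0.40 (SE 0.14, adjusted p 0.890). Between high and low doses, where vehicle is not used, its difference was 0.14 (SE 0.09, adjusted p 0.563).

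**Figure D3:**
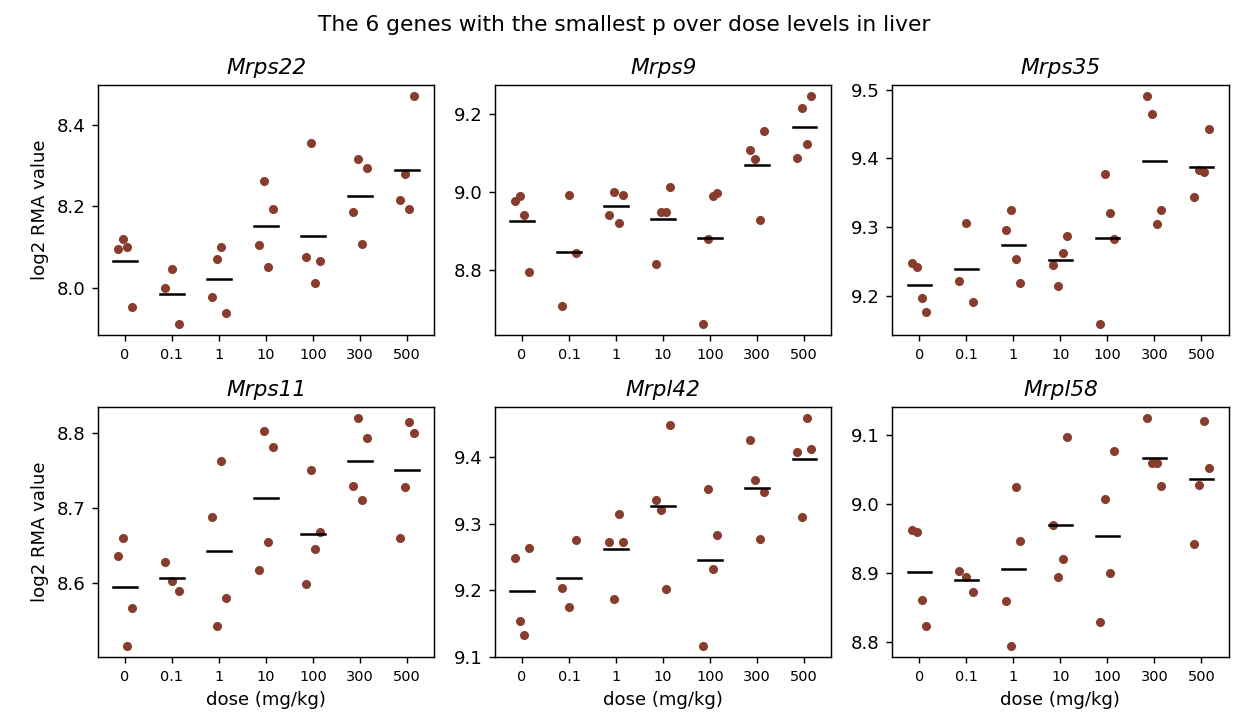
Log2 values on each liver array (points) and group means (bars) by dose in mg/kg for the 6 members with the smallest p in the slope over dose levels, on a separate scale for each gene. In each panel the 300 and 500 mg/kg means are the highest, and single arrays overlap the lower doses.

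A further 6 members were chosen by role and read whatever their values. The human genes of *Mrps16*, *Mrpl3*, *Mrpl12* and *Mrpl44* are linked to inherited deficiency of the respiratory chain. In liver at 500 mg/kg *Mrps12*, a protein of the decoding centre, differed from vehicle by 0.14 (SE 0.09, adjusted p 0.723). *Mrps5* differed by 0.08 (SE 0.08), *Mrps16* by 0.02 (SE 0.07), *Mrpl3* by 0.04 (SE 0.07), *Mrpl12*, which lies in the stalk that recruits translation factors, by 0.03 (SE 0.08) and *Mrpl44*, which has a ribonuclease fold, by 0.07 (SE 0.08). All 6 were above 0 and for none did the difference reach 2 SE. *Mrpl11* is not analysed here.

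Vehicle means of the members' probe sets ran from 6.997 for *Mrpl38* to 10.47 for *Mrpl54* in liver. By the mean over all arrays of an organ, *Mrpl54*, *Mrpl15* and *Mrpl41* had the brightest probe sets in both organs, and *Mrpl38* and *Mrps27* were among the 3 dimmest, joined by *Mrpl49* in liver and *Mrpl19* in kidney. On the vehicle livers alone *Mrpl47*, at 7.44, was dimmer than *Mrpl49*, at 7.53. A probe set's brightness also depends on its probes, so no order of transcript abundance follows. Of the liver probe sets, the 3 brightest differed at 500 mg/kg from vehicle by -0.05 (*Mrpl54*, SE 0.09), 0.10 (*Mrpl15*, SE 0.08) and -0.06 (*Mrpl41*, SE 0.07). The 3 dimmest differed by 0.25 (*Mrpl38*, SE 0.11), 0.26 (*Mrps27*, SE 0.10) and 0.15 (*Mrpl49*, SE 0.09).

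**Figure D4:**
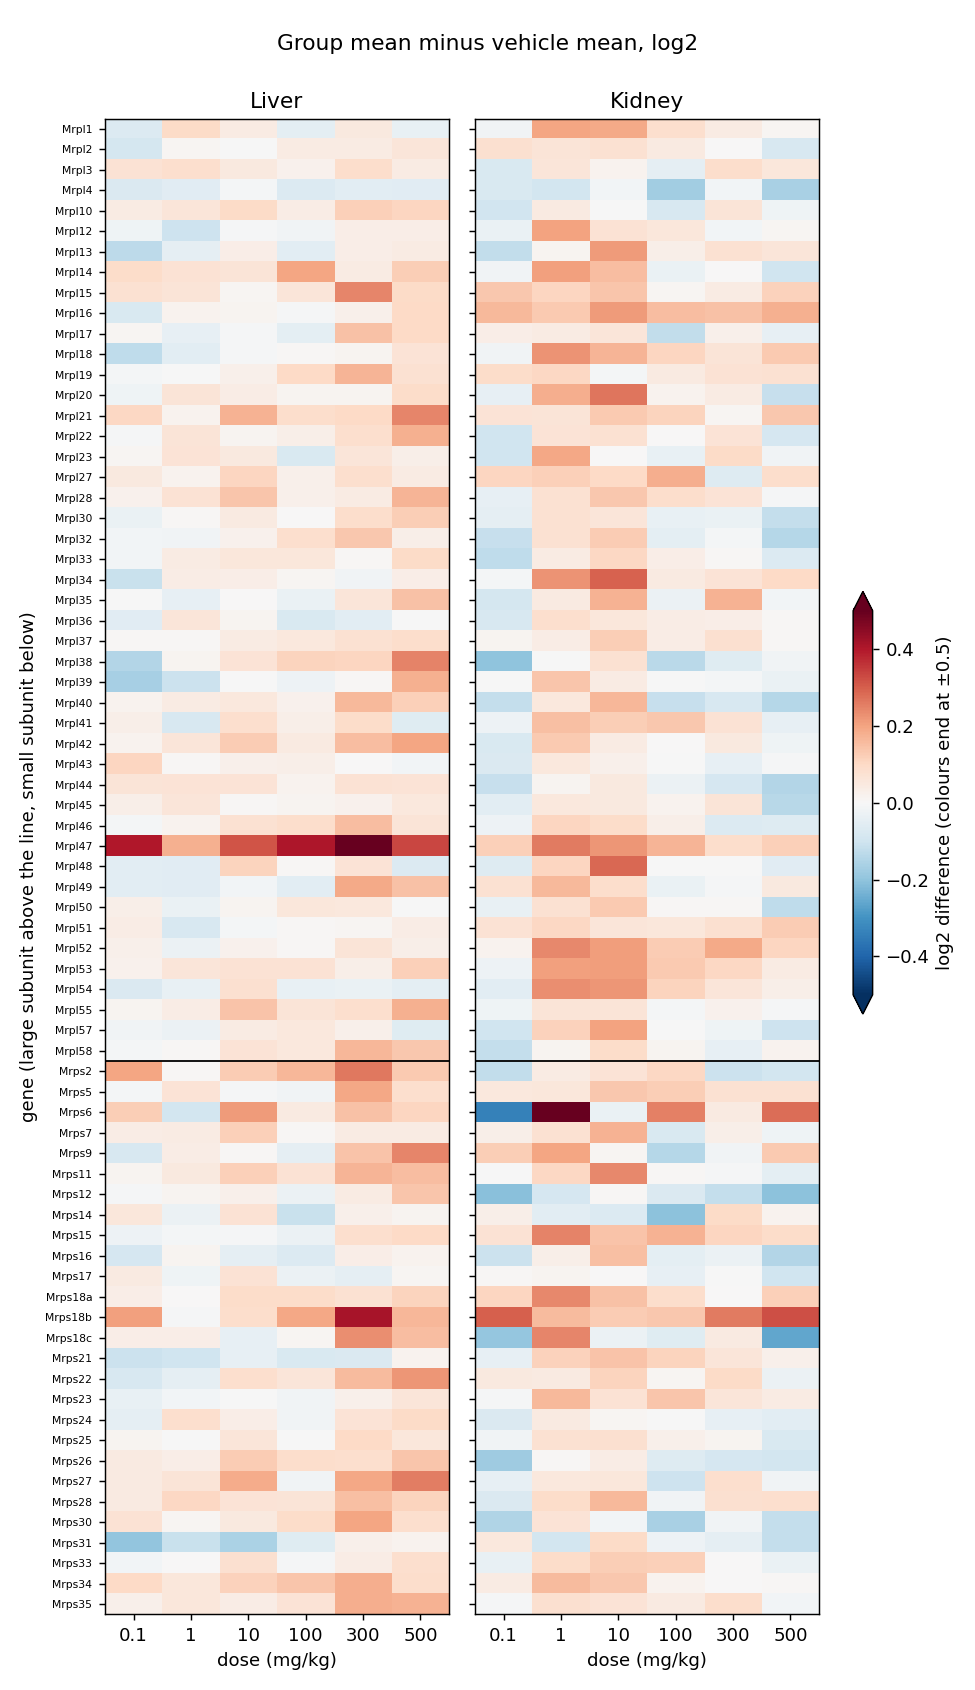
Group mean minus vehicle mean (log2, blue lower and red higher, colours ending at 0.5 either way) for each of the 73 members at each dose in mg/kg, in liver and kidney. In liver the 300 and 500 mg/kg columns are mostly red, with *Mrpl47* red at every dose; in kidney the 1 and 10 mg/kg columns are the reddest.

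The liver differences were also read by motif match. In the 500 mg/kg comparison the 32 members with any of the 3 cores had a median difference of 0.09 and the 27 with a window and none had 0.07. At 300 mg/kg the medians were 0.08 and 0.04. The 14 members with a YY1 core stood at 0.14 at 300 mg/kg against 0.05 for the 45 without, and at 0.09 against 0.07 at 500 mg/kg. The 5 members with an NRF1 core stood at 0.14 against 0.06 for the 54 without at 300 mg/kg, and at 0.10 against 0.07 at 500 mg/kg. For the ETS core the order was the other way, at 0.07 for 20 members against 0.08 for the 39 without at both doses. These differences between subsets were not tested.

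Markers of other cells moved beside the members in liver. Stellate cell and fibroblast markers were below vehicle in 10 of 10 at 500 mg/kg, with a median of -0.35. They were below it in 10 of 10 at 300 mg/kg, with the same median. Over the list, the mean level ran from 7.27 to 7.68 on the vehicle arrays, from 6.92 to 7.22 for the 500 mg/kg livers and from 6.94 to 7.24 for the 300 mg/kg livers, so that the ranges did not meet. It was 7.11 to 7.25 for the 0.1 mg/kg livers, also below the vehicle range. In the 500 mg/kg livers macrophage markers were below vehicle in 8 of 9 (median -0.18), bile duct markers in 5 of 5 (-0.25), lymphocyte markers in 8 of 8 (-0.14) and endothelial markers in 8 of 9 (-0.11). Of 10 hepatocyte markers 5 were above vehicle, with a median of 0.00. Of all probe sets 51.2% were above vehicle at 500 mg/kg and 49% at 300 mg/kg. By limma 0 of the cell markers passed at 500 mg/kg. Their part in the members' values was not tested.

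The rest of the mitochondrial gene expression machinery was read from gene lists. Of 5 mitoribosomal proteins under other symbols, such as *Dap3*, all 5 were above vehicle at 500 mg/kg in liver (median 0.08). Of 15 mitochondrial aminoacyl-tRNA synthetases, which charge the transfer RNAs, all 15 were above (median 0.12). Of 32 genes of protein import 29 were above (0.12), of 30 genes of mitochondrial DNA and RNA handling 25 (0.10), of 18 translation factors 15 (0.05) and of 29 assembly factors 21 (0.06). The assembly list holds *Mettl5*, which acts on cytosolic ribosomal RNA. Of 39 respiratory chain and ATP synthase subunits, partners of the proteins these ribosomes make, 33 were above vehicle (0.10). By limma 0 genes of these lists passed at 500 mg/kg.

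At the neighbouring doses the respiratory chain list and the members differed in their counts. At 300 mg/kg 26 of 39 respiratory chain genes were above vehicle (median 0.03), and at 100 mg/kg 10 of 39 (-0.03). Between high and low doses 36 of 39 were above 0 (0.08). Single list genes passed in 3 places. Of all probe sets, 0.122% passed at 300 mg/kg, 0.554% between high and low doses and 0.245% in the slope. *Gars1*, a glycyl-tRNA synthetase that serves cytosol and mitochondria, rose by 0.53 (SE 0.11, adjusted p 0.0328) at 300 mg/kg. *Atp5f1c*, a subunit of the ATP synthase, was higher by 0.19 (SE 0.04, adjusted p 0.0182) at high than at low doses. *Lactb2*, a mitochondrial endoribonuclease, had a slope of 0.05 per level (SE 0.01, adjusted p 0.0404). Among 12 nuclear regulators of mitochondrial genes, 10 were above vehicle at 500 mg/kg (median 0.04) and 10 at 300 mg/kg (0.26), and 0 passed.

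In kidney the members lay near vehicle at 500 mg/kg and a little above it at 300 mg/kg, and none passed at either dose. At 500 mg/kg 31 of 73 were above vehicle with a median of -0.02 and a median SE of 0.10, against 46.8% of all probe sets. At 300 mg/kg 48 were above with a median of 0.03, against 50.4%. For 5 members all 300 mg/kg kidneys lay above all vehicle kidneys, against 4% of all probe sets, and for 0 below. At 100 mg/kg 42 were above (0.01) and at 0.1 mg/kg 23 (-0.03). The slope over dose levels was above 0 for 35 members (48.9% of all probe sets), with a median of 0.00. Over these 5 comparisons limma passed 0 members, and 0% of all probe sets did. At an unadjusted p under 0.05, 1 member was lower and 0 higher at 500 mg/kg, where 5.13% of all probe sets were lower and 4.95% higher. In the other 4 comparisons 0 members were higher or lower. There, the share of all probe sets higher was 1.79% at 300 mg/kg, 1.97% at 100 mg/kg, 3.51% at 0.1 mg/kg and 2.67% for the slope, and the share lower was 1.83%, 1.98%, 2.39% and 4.44% in the same order. Without the 5 arrays that stand apart the medians were 0.01 at 500 mg/kg and 0.02 at 300 mg/kg. Each array compared was also left out in turn, vehicle replicate 2 among them. The medians then ran from -0.036 to 0.006 at 500 mg/kg and from 0.005 to 0.042 at 300 mg/kg, and 0 members passed.

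The kidney's highest group medians were at 1 and 10 mg/kg. At 1 mg/kg 68 of 73 members were above vehicle (median 0.08), against 49.4% of all probe sets and 58.2% of the brighter ones. At 10 mg/kg 66 were above (0.09), against 51.8% and 57.2%. In limma 0 members passed at either dose, nor did any of all probe sets (0%). At an unadjusted p under 0.05, 6 were higher at 1 mg/kg (3.94% of all probe sets) and 5 at 10 mg/kg (2.55%), and 0 were lower. Each of these groups has 2 arrays, and both 1 mg/kg arrays are among those that stand apart, 1 with liver transcripts and 1 with brown fat transcripts. The 2 arrays of the 1 mg/kg group held 64 and 59 members above the vehicle mean and those of the 10 mg/kg group 68 and 55, against 20, 49 and 50 in vehicle. At 10 mg/kg hepatocyte and fat markers had medians of 0.07 and -0.63 against vehicle, and neither array stood apart. The vehicle kidneys include replicate 3, which has brown fat transcripts (*Ucp1* 9.17), so the fat value also depends on that array. Since both 1 mg/kg arrays stand apart, that dose has no value without them.

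In the contrast of high with low doses 13 of 73 members were above 0 in kidney, with a median of -0.05. This is against 48.1% of all probe sets and 35% of the brighter ones, so a downward lean was common to bright probe sets there. By limma 0 members passed (0% of all probe sets). At an unadjusted p under 0.05, 3 members were lower, against 4.77% of all probe sets. They were *Mrpl40* (-0.14), *Mrpl20* (-0.17) and *Mrps11* (-0.14), of which the last 2 were named after their values were seen. Without the 5 arrays, which leaves only 0.1 and 10 mg/kg as low doses, the median was -0.04.

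*Mrps12* had the smallest p of the family in kidney at 500 mg/kg. It read 9.42, 9.72 and 9.69 in vehicle and 9.38, 9.41 and 9.42 at 500 mg/kg, with a difference of -0.21 (SE 0.09, adjusted p 0.474). Vehicle replicate 1 lay with the dosed arrays. The 0.1 mg/kg kidneys, at 9.42 and 9.38, were as low. *Mrpl44* read 8.37, 8.30 and 8.51 in vehicle and 8.30, 8.17 and 8.27 at 500 mg/kg (-0.15, SE 0.08, adjusted p 0.558). *Mrpl32*, whose product is matured by a protease of the inner membrane, read 9.88, 9.86 and 9.83 against 9.80, 9.64 and 9.71 (-0.14, SE 0.08, adjusted p 0.568). *Mrpl40* read 8.65, 8.64 and 8.65 against 8.50, 8.58 and 8.44 (-0.14, SE 0.08, adjusted p 0.582). These 3 are among the 4 members whose 500 mg/kg kidneys all lay below vehicle, with *Mrpl20*, where 8.81% of all probe sets did so. For *Mrpl44* the nearest arrays of the groups, both at 8.30, differ only beyond the printed digits. For 5 members all lay above, *Mrps18b* among them, where 7% of all probe sets did so.

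The other members with the smallest p over the kidney's dose levels had values that crossed between groups. *Mrpl16* read 10.16, 9.91 and 9.86 in vehicle and 10.27, 10.12 and 10.07 at 500 mg/kg, with a slope of 0.02 per level (SE 0.01, adjusted p 0.759). *Mrpl52* read 9.13, 9.49 and 9.17 in vehicle and 9.35, 9.33 and 9.43 at 500 mg/kg, with a slope of 0.02 (SE 0.01, adjusted p 0.767). The slopes of *Mrpl52* and *Mrpl40* turned sign when the mean of the gene's probe sets was taken. *Mrpl44* had a slope of -0.02 (SE 0.01, adjusted p 0.755), which was -0.00 without the 5 arrays and so without the 1 mg/kg level.

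The liver change minus the kidney change was tested in 1 fit of all arrays. At 500 mg/kg 52 of 73 members were above 0, with a median of 0.11, against 52.9% of all probe sets and 56.3% of the brighter ones. By limma 0 members passed, where 0.029% of all probe sets did, and 5 were higher at an unadjusted p under 0.05 (4.99% of all probe sets) and 0 lower. At 300 mg/kg 51 were above 0 with a median of 0.06, against 49.1% and 57.4%. There 0 members and 0% of all probe sets passed, and 2 were higher at an unadjusted p under 0.05 (3.41%) and 0 lower. After a second quantile normalization of each organ the medians were 0.069 and -0.0058. With liver and kidney arrays of the same dose and number taken as 1 rat they were 0.11 and 0.06, and 0 members passed. Without kidney vehicle replicate 3 the medians were 0.10 and 0.03, and without 500 mg/kg replicate 2 the first was 0.10.

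*Mrps12* had the smallest p, with a liver minus kidney difference of 0.34 (SE 0.13, adjusted p 0.323). In liver it read 9.35, 9.33, 9.11 and 9.37 in vehicle and 9.43, 9.28, 9.56 and 9.43 at 500 mg/kg, so the liver groups overlapped. *Mrpl22*, which lines the exit tunnel, gave 0.26 (SE 0.11, adjusted p 0.393), *Mrpl30* gave 0.24 (SE 0.11, adjusted p 0.457) and *Mrpl40* gave 0.26 (SE 0.12, adjusted p 0.458). For *Mrpl30* the liver read 9.34, 9.39, 9.32 and 9.37 in vehicle and 9.42, 9.54, 9.50 and 9.46 at 500 mg/kg. In kidney it read 9.02, 9.17 and 9.21 against 9.014, 9.002 and 9.032. Liver values lay above and kidney values partly below their vehicle arrays.

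The organs themselves differed far more than the doses. Between vehicle kidney and vehicle liver 59 of 73 members passed in limma, 48 higher and 11 lower in kidney, with a median of 0.36, or 1.29-fold. Of all probe sets 28.5% were higher and 32.9% lower in kidney, and of those brighter than the median 43.9% and 30.6%. By subunit, 28 of 46 large and 20 of 27 small subunit members were higher in kidney, and 7 and 4 were lower. The size of the median depends on how the organs are set against each other, and after all 44 arrays were quantile normalized together it was 0.18. Without kidney vehicle replicate 3 it was 0.31 and 53 members passed, and without kidney vehicle replicate 2 it was 0.29 and 54 passed. The array's 75th percentile lay at 7.14 to 7.26 in liver and 7.33 to 7.48 in kidney. Respiratory chain genes were above 0 in 39 of 39, with a median of 0.80.

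*Mrps6*, a relative of bacterial S6, had the largest difference. It read 8.05, 7.84, 7.84 and 8.09 in vehicle liver and 10.17, 10.17 and 10.55 in vehicle kidney, higher in kidney by 2.34 (SE 0.16, adjusted p 3.36e-15). In kidney it also varied most between arrays, at 10.60 and 11.29 for 1 mg/kg, 10.13 and 10.95 for 100 mg/kg and 10.23, 10.99 and 10.51 for 500 mg/kg. The arrays with brown fat transcripts among these, vehicle replicate 3, 1 mg/kg replicate 2 and 500 mg/kg replicate 2, were each the highest of their group. The 300 mg/kg array with such transcripts was not, at 10.38 between 10.40 and 10.24, and neither 100 mg/kg array stood apart. The part of fat in these values was not tested.

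*Mrps25*, found only in mitochondrial ribosomes, read 9.07, 9.16, 9.15 and 9.08 in vehicle liver and 10.44, 10.52 and 10.35 in vehicle kidney (1.32, SE 0.08, adjusted p 4.39e-17). *Mrpl47* read 8.56, 8.59 and 8.47 in vehicle kidney and was higher there by 1.10 (SE 0.13, adjusted p 2.07e-09). Lower in kidney were *Mrps27*, a protein with RNA-binding helical repeats, by -0.62 (SE 0.11, adjusted p 8.45e-06), *Mrpl1* by -0.52 (SE 0.09, adjusted p 1.07e-05) and *Mrpl52* by -0.45 (SE 0.09, adjusted p 8.48e-05). *Mrps27* read 7.37, 7.49, 7.43 and 7.35 in liver and 6.62, 6.85 and 6.90 in kidney, with no overlap. *Mrpl52* read 9.73, 9.92, 9.46 and 9.76 in liver and 9.13, 9.49 and 9.17 in kidney, which overlap, and its call was lost when its probe sets were averaged. Members with a further probe set can be checked against it. For 24 such probe sets of 18 genes, 17 had the sign of the brightest one in this comparison. Of these 24, only 12 were higher in kidney, and their median was -0.08, so they did not share the family's upward median.

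**Figure D5:**
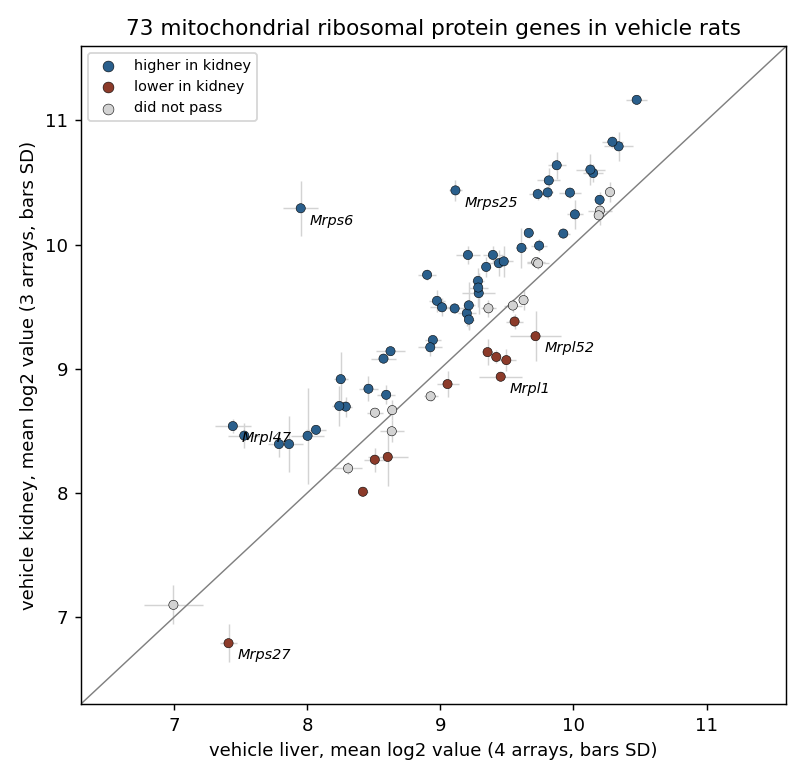
Mean log2 value of each of the 73 members in vehicle liver (horizontal, 4 arrays) and vehicle kidney (vertical, 3 arrays), with bars of 1 SD and the line of equal values. The 48 members higher in kidney (blue) lie above the line, with *Mrps6* and *Mrps25* farthest, the 11 lower (red) lie below it, and 14 did not pass (grey).

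The lists of other mitochondrial genes were counted by the genes that passed between vehicle kidney and vehicle liver. Of all probe sets 28.5% passed as higher and 32.9% as lower in kidney, and of the brighter ones 43.9% and 30.6%. Of 32 import genes 22 were higher and 3 lower (median 0.43), led by *Tomm20*, a receptor of the outer membrane, at 1.95 (SE 0.10, adjusted p 3.90e-19). Of 15 synthetases 2 were higher and 6 lower (-0.19), and of 18 translation factors 5 were higher and 4 lower (-0.02). Of 29 assembly factors 9 were higher and 8 lower (0.03), among them the helicase *Dhx30* at 1.56 (SE 0.09, adjusted p 3.82e-18). Of 30 genes of mitochondrial DNA and RNA 14 were higher and 8 lower (0.17), with the DNA polymerase *Polg* lower by -1.59 (SE 0.08, adjusted p 7.25e-19). The co-activator *Ppargc1a*, a regulator of mitochondrial genes, was higher by 2.67 (SE 0.27, adjusted p 7.15e-11). Whether these lists differ from the family was not tested.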

How the data were processed

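Total RNA of 27 livers and 17 kidneys was measured on Affymetrix rat arrays. The deposited table holds log2 values made with RMA, per the submitters' processing notes. RMA corrects background, quantile normalizes arrays and summarises probes, which takes out any shift common to most transcripts. Not given in the sources used here are its version, the chip definition and whether both organs were normalized together. The log2 values the authors deposited run from 1.80 to 14.85, and 0 pairs of arrays were identical. No scanner files were used, so no probe set was called above background.

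Of 31099 probe sets, 57 controls were left out and 31042 tested. limma 3.58.1 in R 4.3.3 fitted the 7 dose groups of an organ together (lmFit, eBayes), two-sided, with Benjamini-Hochberg adjustment and a threshold of 0.05. Organ contrasts used 1 fit of all 44 arrays, with no animal block. The fits were tested on simulated data. Arrays were grouped by title. A 10 mg/kg kidney array has no number in its title and was numbered in accession order. Within an organ, same-numbered dosed and vehicle arrays correlated at -0.35 to 0.36 in their deviations from group means, and numbers were not taken to pair them. Between organs, the 16 liver and kidney pairs of 1 dose and number correlated at -0.10 to 0.18, with 3 above 0.1. Whether a number marks a rat is thus not settled, though *Xist* was high in vehicle replicate 2 of both organs. A fit with such pairs as a random block was added after seeing the data.

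The members and lists were chosen with earlier results of these data known. Members named are the 6 lowest p in each organ's trend and at 500 mg/kg, the 3 brightest and 3 dimmest, 7 chosen by role or disease, the 4 with the smallest p in the organ difference and the 3 each way between vehicle organs. List genes are those that passed, at most 3 per list and organ. Other members (*Mrps18b*, *Mrpl39* and *Mrpl47* beyond these, *Mrpl20* and *Mrps11* in kidney) were named after their values were seen. Of the 73 members 55 have 1 probe set and 21 have a listed pseudogene, whose transcripts such probes may share. Alternatives were other probe set filters, normalizations, variance models, weights, dose coding, probe set averaging and left-out arrays. Centring, joint normalization and leaving out the 5 kidney arrays were chosen after seeing the data.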

Additional observations from a re-analysis of the deposited data

Results flagged for a closer look

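*Mrps22* in liver vehicle replicate 4 read 7.95, while the other 3 vehicle livers read 8.09 to 8.12, so that this array lay far below a close group. The gap took up 0.851 of the group's range, above Dixon's critical value for 4 samples. In all 54 groups of 4 livers were checked (the members' median and 8 genes), and chance passes that value in about 1 in 20 groups. At 500 mg/kg the difference of *Mrps22* ran from 0.16 to 0.25 when each array was left out in turn.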

How the results depend on the processing

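Of 57 named results, 48 kept their sign in every alternative and 9 changed it in at least 1, 2 gained a call and 1 lost it. They cover members named by rule in the slopes, at 500 mg/kg, in the organ difference at 500 mg/kg and between vehicle organs. Single members at 300 mg/kg or between high and low doses are not among them, nor is *Mrps18b* in liver. On probe sets brighter than the median, 2 members passed at 300 mg/kg in liver and 6 between high and low doses. In the slope 2 passed, *Mrps22* (adjusted p 0.0330) and *Mrps35* (adjusted p 0.0376). Such a fit changes both the number of probe sets tested and the shared estimate of spread, and which mattered was not tested. With an intensity trend and robust spread, 2 passed at 300 mg/kg and 3 between high and low doses. In that contrast 1 passed after a second quantile normalization, 1 with averaged probe sets, and 0 to 1 when arrays were left out in turn. The second normalization gave a liver median of 0.025 at 300 mg/kg and organ difference medians of 0.069 at 500 and -0.0058 at 300 mg/kg, and centring gave 0.15 at 500 mg/kg. The kidney minus liver median in vehicle was 0.28 with averaged probe sets, 0.18 after joint normalization of the 44 arrays and 0.29 to 0.36 with arrays left out. Averaged probe sets turned *Mrpl40* in kidney (0.014 at 500 mg/kg, 0.00077 for the slope) and the kidney slope of *Mrpl52* (-0.025), and *Mrpl52* between organs was -0.16 (adjusted p 0.183). The cause was not tested. With the replicate block, 0 members passed at 500 mg/kg in liver (median 0.09), and the block changed no call. Pairing liver with kidney arrays by dose and number (correlation 0.031) changed no count in the organ contrasts. Fits of only the compared groups were not run for slopes and organ contrasts. A change near the members' median of 0.09 is about 1 SE of a single member (0.07), so these arrays cannot show it for 1 gene.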
